A study of Homo sapiens with 19 samples.

Results

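The response of MDA-MB-231 cells to an siRNA against STAT3 was measured in 2 separate experiments of the series, and the response itself was compared between them. MDA-MB-231 is an established human line of triple-negative breast cancer. The comparison used 12 of the 19 samples in the series, chosen by their labels and not by any measured value. Without a vector, 4 libraries came from cells given a control siRNA (Ctrl) and 2 from cells given the STAT3 siRNA (siSTAT3). With a vector, 3 libraries came from cells given the control siRNA and an empty control vector (Ctrl+Vector), and 3 from cells given the STAT3 siRNA and the same empty vector (siSTAT3+Vector). Every group carried an siRNA at 30 nM, delivered with a lipid reagent, in L15 medium with fetal bovine serum. The series' design text describes the vector as lentiviral and the vector cells as a second experiment, so infection and experiment changed together and cannot be told apart. Whether replicates were separate cultures is not stated in the labels, so a p-value here measures the spread among these libraries, and that spread may be technical. In bulk RNA, fewer cells of a kind and less RNA per cell cannot be told apart.

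STAT3 is a transcription factor that waits in the cytoplasm until a JAK kinase, bound to a cytokine receptor such as gp130, phosphorylates it on tyrosine. The phosphorylated protein forms dimers, enters the nucleus and binds DNA, and in triple-negative breast cancer lines it is often active without added cytokine. An siRNA guides the cell's own Argonaute complex to the matching messenger RNA, which is cut, and short RNAs of this kind also act on some messengers that they match only in part. A lentiviral vector inserts its DNA into the genome of the host cell, and an empty one carries no added gene.

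Each library held 19203646 to 23047081 estimated reads, with the libraries without vector at 19203646 to 19509422 and those with vector at 22500086 to 23047081. Of 175775 Ensembl transcripts listed, 81234 were abundant enough to test, and 15859 of these had a mean of at least 10 CPM (read counts scaled to library size) over the 12 libraries. The files give transcript IDs with a length and pair them with no gene, and the reference tables used here pair gene IDs, not transcript IDs, with symbols. Results are therefore given per transcript, the planned gene lists and marker checks were not run, and the STAT3 level itself was not checked. A read that fits several transcripts is divided among them by a model, so isoforms of 1 gene can trade reads between libraries. For that reason the description returns to 168 transcripts of at least 10 CPM whose estimated reads lay no more than 0.0015 from a whole number in each of the 17 RNA libraries of the series. Their reads were treated as unshared, and individual transcripts are named from this set alone. No member carries a printed sequence, since transcript sequences were not at hand.

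The 4 Ctrl libraries were not alike. Replicates 1 and 2 stood apart from replicates 3 and 4. Over transcripts with unshared reads, the mean chi-square between libraries was 50.3 to 58.7 across the pairs, 1.71 and 2.46 inside them, and 1.71 to 6.62 for replicates in the remaining 3 groups. The pairs differed for 3188 of the 15859 transcripts (20.1%, or 5.85% of all tested; edgeR quasi-likelihood test, adjusted p under 0.05). The counts of differing and agreeing transcripts and the named transcripts were therefore also taken against each Ctrl pair alone. Transcripts shorter than 300 bases took 1.57% and 1.59% of the reads in the siSTAT3 libraries, against 1.15% to 1.26% in Ctrl and 1.16% to 1.28% in the vector libraries. The part of that shift in the results was not tested.

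The STAT3 siRNA effect differed between the experiments for a sizeable part of the abundant transcripts and agreed for a smaller one, under rules that are not equally strict. Among the 15859 transcripts of at least 10 CPM, the difference of effects, (siSTAT3 minus Ctrl) minus (siSTAT3+Vector minus Ctrl+Vector), passed the test for 2469 (15.6%, or 4.42% of all 81234 tested; edgeR quasi-likelihood interaction contrast, Benjamini-Hochberg adjusted p under 0.05). The effect was more positive without vector for 973 of them (6.14%, or 1.8% of all tested) and more negative for 1496 (9.43%, or 2.61% of all tested). That balance depended on the scaling, with 1179 more positive and 1233 more negative when TMM factors came from the transcripts of at least 10 CPM alone. In 2439 of the 2469, no group had under 3 estimated reads in all its libraries, and of these 1543 differed by at least 2-fold and 305 by at least 4-fold. Agreement was held to a stricter standard than a missed threshold. It required both effects past the test in the same direction, no call for the difference, and a 95% interval of the difference inside 1 log2 unit on either side of 0. That rule took 706 transcripts (4.45%, or 0.977% of all tested), 234 raised and 472 lowered by the siRNA in both experiments. This balance too depended on the scaling, with 318 raised and 434 lowered under TMM factors from the transcripts of at least 10 CPM alone. Without the condition on the interval, the rule took 860 in the main fit. Both counts rested on having 2 siSTAT3 libraries: without siSTAT3 replicate 1, 1442 differed and 350 agreed (82 raised), and without siSTAT3 replicate 2, 1416 differed and 335 agreed (77 raised). For 7472 transcripts the difference was not called and its interval reached beyond 1 log2 unit, so neither agreement nor difference was shown at this depth and spread. The interval lay inside 1 log2 unit for 6220 of the 15859, with the difference called or not. The agreement rule also needs both effects called, and neither effect was called for 10308. The 706 therefore leave out transcripts with a small difference and no called effect, and cannot be weighed directly against the 2469.

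Each single effect gave the following calls among transcripts of at least 10 CPM. Without vector, 1042 were higher (6.57%, or 2.17% of all tested) and 2316 lower (14.6%, or 4.12% of all tested) in siSTAT3 than in Ctrl, 21.2% in all against 6.29% of all tested. With vector, 1498 were higher (9.45%, or 2.76% of all tested) and 2025 lower (12.8%, or 3.76% of all tested) in siSTAT3+Vector than in Ctrl+Vector, 22.2% in all against 6.52% of all tested. The balance without vector depended on the scaling: 34.5% of its calls over all tested were higher, and 45.5% with TMM factors from the transcripts of at least 10 CPM alone. Both effects were called for 1330 of the 15859 transcripts, 1037 in the same direction and 293 in opposite directions. Over all 81234 tested these counts were 1647, 1299 and 348. How many would be called in both if the calls were unrelated was not tested. Across the 15859 transcripts the 2 effects correlated at Pearson r = 0.10 and Spearman rho = 0.20, and r was 0.16 against Ctrl replicates 1 and 2 and 0.01 against Ctrl replicates 3 and 4. The r over all 15859 includes 281 transcripts with under 3 estimated reads in every library of a group. Their fitted values depend on the prior count of the fit. By level, r was 0.08 at 10 to 20 CPM, 0.10 at 20 to 50, 0.20 at 50 to 100, 0.11 at 100 to 500 and 0.27 at 500 or more. These correlations run across transcripts, which share the same 12 libraries and are not independent replicates.

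**Figure D1:**
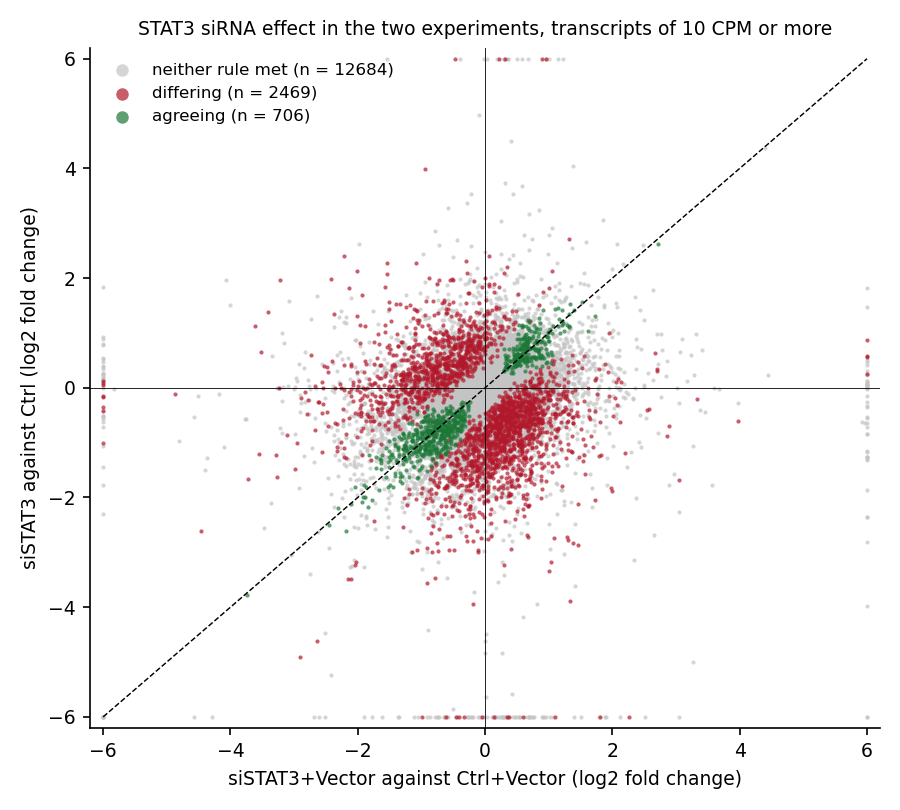
STAT3 siRNA effect without vector (y axis) against the effect with vector (x axis), both as log2 fold changes, for each transcript of at least 10 CPM. Red points differ (2469), green points agree (706), grey points meet neither rule, the dashed line marks equal effects, and 206 points beyond 6 on either axis are drawn at that limit.

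The 2469 differing transcripts fell into several kinds. In 1008 (40.8%) the effect was called without vector and not with vector. The siRNA groups were lower than their controls in 738 of these and higher in 270, beside 2316 lower and 1042 higher among all calls without vector. In 819 (33.2%) the effect was called with vector and not without. The siRNA groups were lower in 476 of these and higher in 343, beside 2025 lower and 1498 higher among all calls with vector. In both kinds the balance of directions was close to that of all calls in the same experiment. Opposite effects, both called, were seen in 293, of which 99 were raised without vector and lowered with it, and 194 were lowered without vector and raised with it. A shared direction with unequal size was found for 177 transcripts, the larger effect being without vector in 118 and with vector in 59. The remaining 172 passed the test of the difference while neither effect passed its own.

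Named transcripts were the 2 with the largest positive and the 2 with the largest negative difference among those with unshared reads. ENST00000223023.4, 4435 bases long, had the smallest SE of the difference among the 4. It was at 65, 63.5, 72 and 69.8 CPM in Ctrl and at 15.2 and 15.6 CPM in siSTAT3, and at 68.4, 74.8 and 71.4 CPM in Ctrl+Vector and at 118, 111 and 118 CPM in siSTAT3+Vector. The 2 control groups overlapped, while the STAT3 siRNA libraries lay below all controls without vector and above all controls with it. It was 4.39-fold lower without vector (log2 fold change -2.13 ± 0.08, SE, adjusted p = 1.87e-06) and 1.62-fold higher with vector (0.69 ± 0.07, adjusted p = 0.000363). The difference was -2.83 ± 0.11 (adjusted p = 4.07e-06; 95% interval -3.06 to -2.59), and it was -2.75 and -2.90 against the Ctrl pairs.

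ENST00000378988.4, of 1610 bases, also had its difference on the negative side. Its Ctrl libraries held 5.66, 5.26, 11.4 and 11.3 CPM, its siSTAT3 libraries 3.47 and 3.76 CPM, its Ctrl+Vector libraries 13.6, 13 and 12.6 CPM and its siSTAT3+Vector libraries 36.1, 39.2 and 39.5 CPM. No groups overlapped, and the 2 Ctrl pairs lay apart from each other. The mean over the 12 libraries was 16.2 CPM, with siSTAT3+Vector at 38.2 CPM, so the limit of 10 CPM was passed largely through that group. With vector it rose 2.93-fold (log2 fold change 1.55 ± 0.29, SE, adjusted p = 0.0124), and without vector its log2 fold change was -1.22 ± 0.33 (adjusted p = 0.0602). The difference was -2.77 ± 0.44 (adjusted p = 0.00688), at -2.14 against Ctrl replicates 1 and 2 and -3.20 against Ctrl replicates 3 and 4. Against either pair alone the fall without vector passed the test too (-0.59, adjusted p = 0.0078, and -1.65, adjusted p = 2.31e-05).

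ENST00000421546.1, of 3495 bases, responded the other way round. It was at 8.91, 8.91, 7.37 and 10.7 CPM in Ctrl and 34.1 and 36 CPM in siSTAT3, against 6.26, 7.48 and 9.55 CPM in Ctrl+Vector and 5.21, 4.65 and 4.29 CPM in siSTAT3+Vector. The siSTAT3 libraries stood above all the others, and the Ctrl and Ctrl+Vector libraries overlapped. Its mean over the 12 libraries was 12 CPM, and siSTAT3 was the only group with a mean above 10 CPM. It thus passed the limit of 10 CPM through the group that sets its difference, and its choice does not stand apart from that rise. The transcript rose 3.9-fold without vector (log2 fold change 1.96 ± 0.19, SE, adjusted p = 0.00027), while with vector its log2 fold change was -0.72 ± 0.19 (adjusted p = 0.0534). The difference was 2.68 ± 0.27 (adjusted p = 0.000581), at 2.69 and 2.67 against the Ctrl pairs.

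ENST00000266085.6, of 4603 bases, had the highest difference among transcripts with unshared reads and, of the 8 named, the largest SD among Ctrl libraries. Ctrl replicates 1 and 2 were at 93.5 and 104 CPM and Ctrl replicates 3 and 4 at 31.4 and 31.3 CPM, while siSTAT3 was at 95.7 and 101 CPM. With vector the level was 75.5, 66.1 and 78.2 CPM in Ctrl+Vector and 11.2, 10.2 and 11.7 CPM in siSTAT3+Vector, with no overlap. It was 6.62-fold lower with vector (log2 fold change -2.73 ± 0.46, SE, adjusted p = 0.00683), and without vector the log2 fold change was 0.60 ± 0.45 (adjusted p = 0.56). The effect without vector was -0.0028 against Ctrl replicates 1 and 2 and 1.65 against Ctrl replicates 3 and 4. The difference of 3.33 ± 0.62 (adjusted p = 0.0153) became 2.72 and 4.38 against those pairs, and its call ended without siSTAT3 replicate 2 (3.28, adjusted p = 0.0555).

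**Figure D2:**
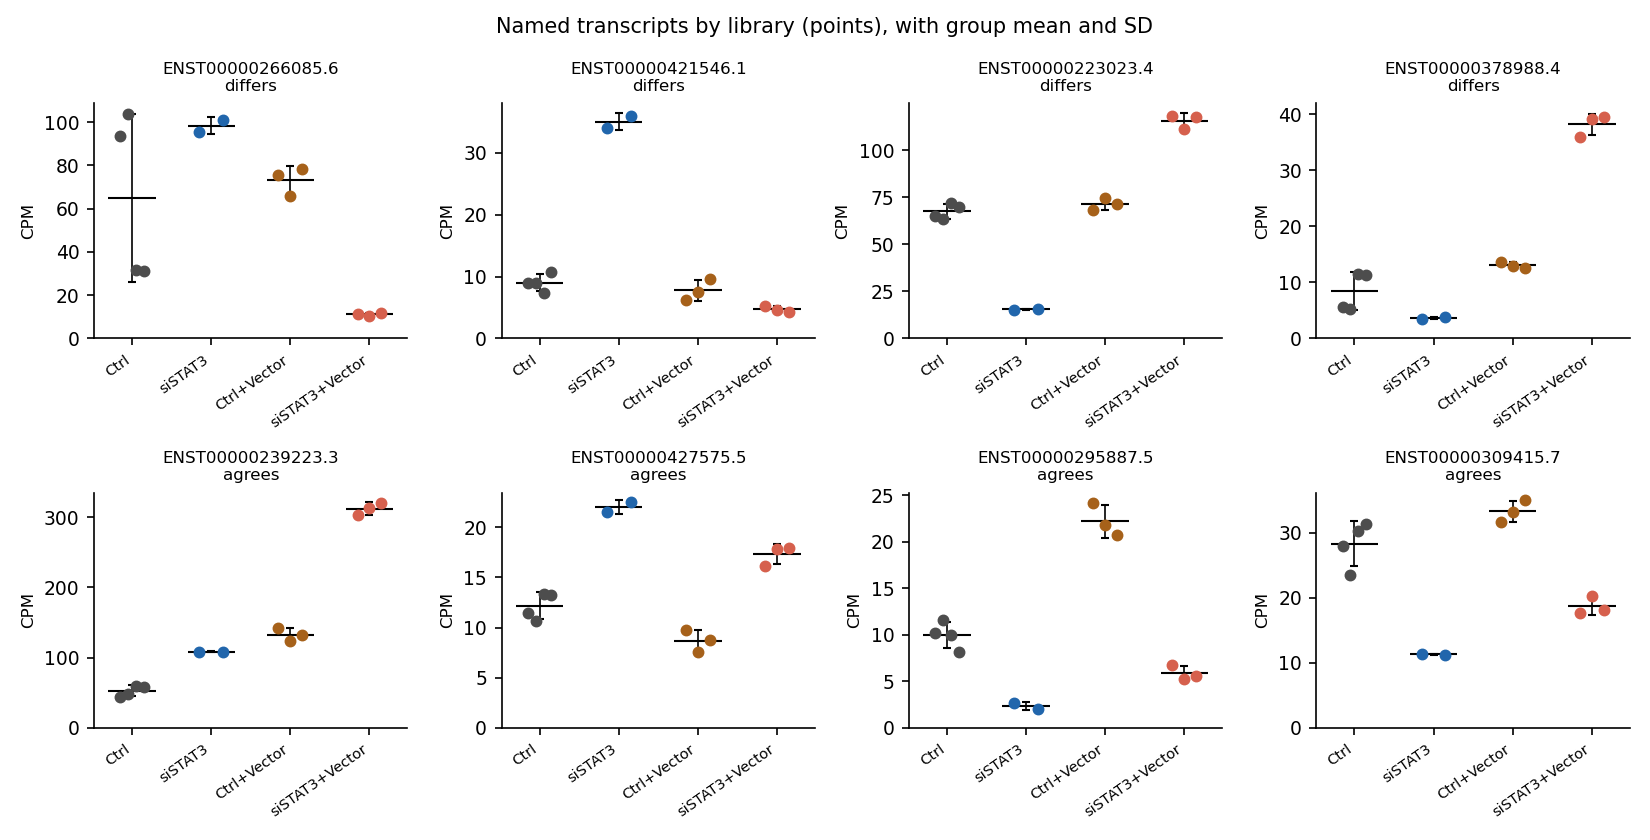
CPM (y axis, linear from 0) of the 8 named transcripts in each of the 12 libraries, as points by group, with the group mean (bar) and SD. In the upper row the step from control to STAT3 siRNA changes between the experiments, as for ENST00000223023.4 with 15.2 and 15.6 CPM in siSTAT3 and 111 to 118 CPM in siSTAT3+Vector, and the lower row holds the transcripts that met the agreement rule, with steps in the same direction.

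Transcripts that agreed moved in the same direction in both experiments by the rule that chose them, from starting levels that could differ. The rule also set the uncalled difference and its narrow interval in the main fit, so these values describe the transcripts only. ENST00000239223.3, of 2019 bases, had the largest rise shared by both experiments among agreeing transcripts with unshared reads. It was at 43.9, 48, 59.5 and 58.5 CPM in Ctrl and 109 and 108 CPM in siSTAT3, and at 143, 124 and 131 CPM in Ctrl+Vector and 303, 314 and 321 CPM in siSTAT3+Vector. The control level was higher with vector (Ctrl against Ctrl+Vector, log2 fold change -1.34 ± 0.11, SE, adjusted p = 6.6e-05), and no groups overlapped within an experiment. The siRNA raised it 2.06-fold without vector (1.04 ± 0.12, adjusted p = 0.000618) and 2.35-fold with vector (1.23 ± 0.11, adjusted p = 0.000251). The difference was -0.19 (95% interval -0.56 to 0.18, adjusted p = 0.649). Against Ctrl replicates 3 and 4 alone the difference was -0.36 and passed the test (adjusted p = 0.0364), whereas against Ctrl replicates 1 and 2 it was 0.00067.

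ENST00000427575.5, of 2031 bases, rose 1.81-fold without vector and 2-fold with it. Its libraries were at 11.5, 10.6, 13.3 and 13.3 CPM in Ctrl, 21.6 and 22.5 CPM in siSTAT3, 9.75, 7.52 and 8.71 CPM in Ctrl+Vector and 16.2, 17.9 and 17.9 CPM in siSTAT3+Vector. The STAT3 siRNA libraries lay above the controls in both experiments. The log2 fold changes were 0.86 ± 0.14 (SE, adjusted p = 0.00583) and 0.998 ± 0.14 (adjusted p = 0.00248), a difference of -0.14 with a 95% interval of -0.59 to 0.31. The call without vector ended when siSTAT3 replicate 2 was left out (0.82, adjusted p = 0.0673).

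Of the agreeing transcripts with unshared reads that fell, ENST00000295887.5, of 4461 bases, had the largest shared fall. It went from 10.2, 11.6, 9.93 and 8.18 CPM in Ctrl to 2.64 and 2.04 CPM in siSTAT3, and from 24.2, 21.8 and 20.7 CPM in Ctrl+Vector to 6.71, 5.23 and 5.53 CPM in siSTAT3+Vector. Controls with vector were above controls without it, and each siRNA group was below its own controls without overlap. Ctrl+Vector, at a mean of 22.2 CPM, was the only group above 10 CPM, so the transcript passed that limit through this group. The fall was 4.26-fold without vector (log2 fold change -2.09 ± 0.21, SE, adjusted p = 0.000305) and 3.81-fold with vector (-1.93 ± 0.18, adjusted p = 0.000251), and the difference was -0.16 (95% interval -0.73 to 0.41).

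ENST00000309415.7, of 5803 bases, fell 2.51-fold and 1.78-fold. It was at 28, 23.5, 30.2 and 31.4 CPM in Ctrl, 11.3 and 11.2 CPM in siSTAT3, 31.6, 33.2 and 35 CPM in Ctrl+Vector and 17.7, 20.2 and 18.2 CPM in siSTAT3+Vector. Its effects were -1.33 ± 0.13 (SE, adjusted p = 0.000312) and -0.83 ± 0.12 (adjusted p = 0.00261) on the log2 scale. The difference of -0.49 had a 95% interval of -0.88 to -0.11 and an adjusted p of 0.164, so this transcript agreed in direction while its sizes may differ. Against Ctrl replicates 3 and 4 the difference was -0.62 and passed the test (adjusted p = 0.0225).

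The whole set of 168 transcripts with unshared reads held 48 (28.6%) that differed and 16 (9.52%) that agreed, both shares being above those of all transcripts of at least 10 CPM (15.6% and 4.45%). Its median SE of the difference was 0.21 against 0.27 over all, so its effects were also measured more precisely. The 27 positive differences ran from 0.50 to 3.33 on the log2 scale (median 1.10) and the 21 negative ones from -2.83 to -0.48 (median -1.40). Of the 48, 18 were called without vector and not with it, 14 with vector and not without, 10 in opposite directions, 4 in the same direction with unequal size and 2 in neither. The 16 that agreed comprised 10 raised and 6 lowered, with log2 effects of 0.37 to 1.04 without vector and 0.31 to 1.23 with vector among the raised, and of -2.09 to -0.36 and -1.93 to -0.33 among the lowered. Their differences ran from -0.49 to 0.16, and the larger effect was with vector in 7 and without vector in 9. Leaving out siSTAT3 replicate 1 or 2 left 25 differing in each case and 7 or 6 agreeing, the remaining siSTAT3 library being given the spread of the other groups. Leaving out siSTAT3+Vector replicate 2 left 31 differing and 10 agreeing, and leaving out siSTAT3+Vector replicate 1 left 10 agreeing.

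The difference of effects can also be read along the other side of the design, as the gap between experiments in siSTAT3 libraries minus the gap in control libraries. Among the 2469 differing transcripts, siSTAT3 and siSTAT3+Vector differed in 1968 (79.7%) and Ctrl and Ctrl+Vector in 1095 (44.3%), beside 37.8% and 32.3% of all transcripts of at least 10 CPM and 13.1% and 11.4% of all tested. The gap was called for the STAT3 siRNA groups and not for the controls in 1334 (54%, beside 19.4% of all transcripts of at least 10 CPM). It was called for the controls and not for the siRNA groups in 461 (18.7%, beside 13.9%). It was called for both in 634, beside 2914 of all 15859, and for neither in 40, beside 7655. The larger gap was between the STAT3 siRNA groups for 1883 and between the controls for 586, with median absolute gaps of 1.03 and 0.39 log2 units. Over all 15859 transcripts these counts were 9277 and 6582, with medians of 0.59 and 0.44 log2 units. Among the 48 with unshared reads the larger gap was between the STAT3 siRNA groups in 41, beside 108 of all 168. The 706 agreeing transcripts had gaps of like size, at medians of 0.40 and 0.36 log2 units, and Ctrl and Ctrl+Vector differed in 343 of them (48.6%). These gaps come from the libraries that chose the transcripts and describe them only.

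**Figure D3:**
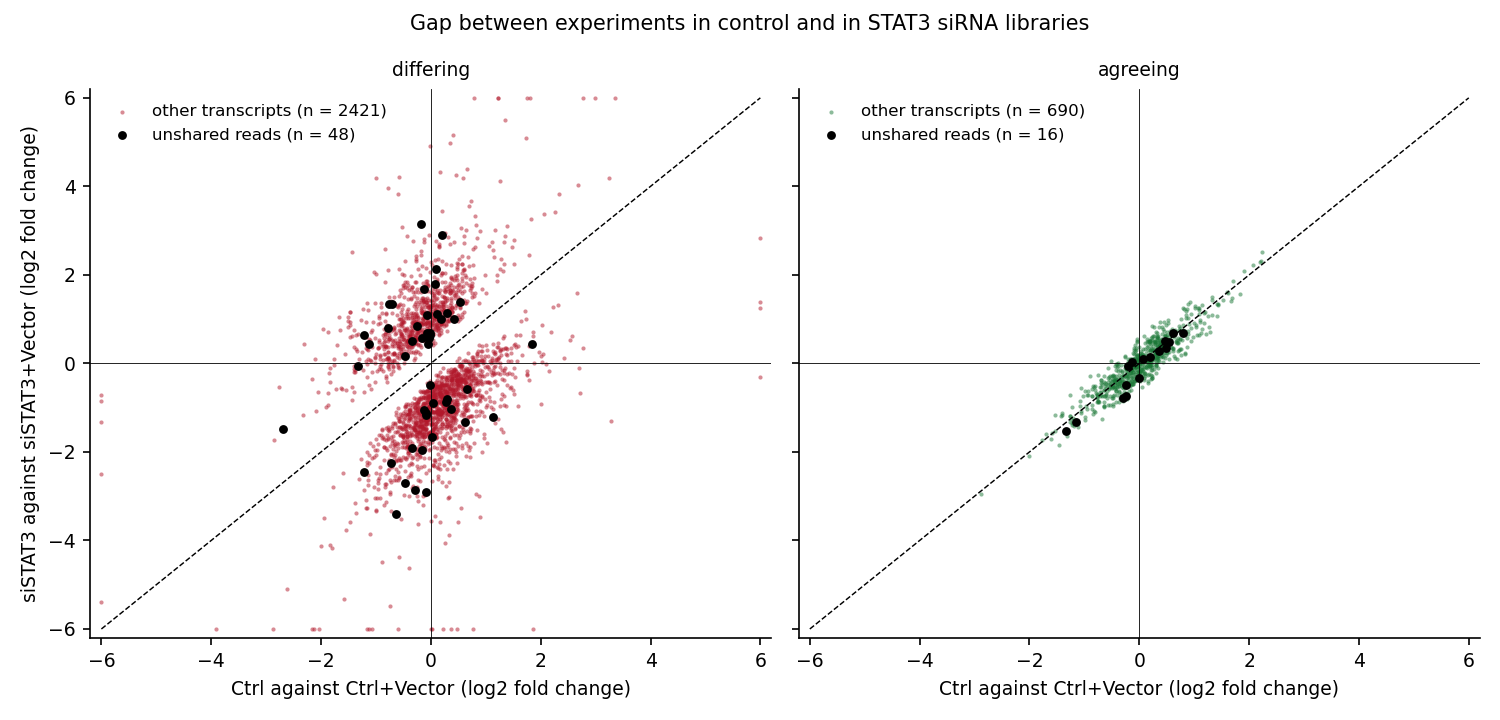
Gap between the experiments in control libraries (x axis, Ctrl against Ctrl+Vector) and in STAT3 siRNA libraries (y axis, siSTAT3 against siSTAT3+Vector), as log2 fold changes, for differing (left) and agreeing (right) transcripts of at least 10 CPM. Black points have unshared reads, and 33 points beyond 6 are drawn at that limit. Most differing points (1883 of 2469) lie farther from 0 on the y axis than on the x axis, as did 9277 of all 15859 transcripts.

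Longer and more abundant transcripts differed more often. The share that differed was 10.1% of 148 transcripts under 300 bases, 12.1% from 300 to under 600 bases, 12.3% from 600 to under 1000, 13.3% from 1000 to under 2000, 16.4% from 2000 to under 4000 and 19.1% of 4568 transcripts of 4000 bases or more. The share that agreed did not follow that order, at 6.08% under 300 bases, 3.19% from 1000 to under 2000 bases and 5.43% at 4000 or more. By level, 9.53% of transcripts with 10 to 20 CPM differed, 16.3% with 20 to 50, 22.8% with 50 to 100, 26.7% with 100 to 500 and 36.8% of the 117 with 500 CPM or more. Agreement rose alongside, from 2.27% to 9.4%. The median SE of the difference fell from 0.34 to 0.14 log2 units over the same classes, while the median absolute difference went from 0.55 to 0.42. Just below the limit of 10 CPM, 5.91% of the 1235 transcripts with 9 to 10 CPM differed, and just above it 7.14% of the 995 with 10 to 11 CPM did.

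**Figure D4:**
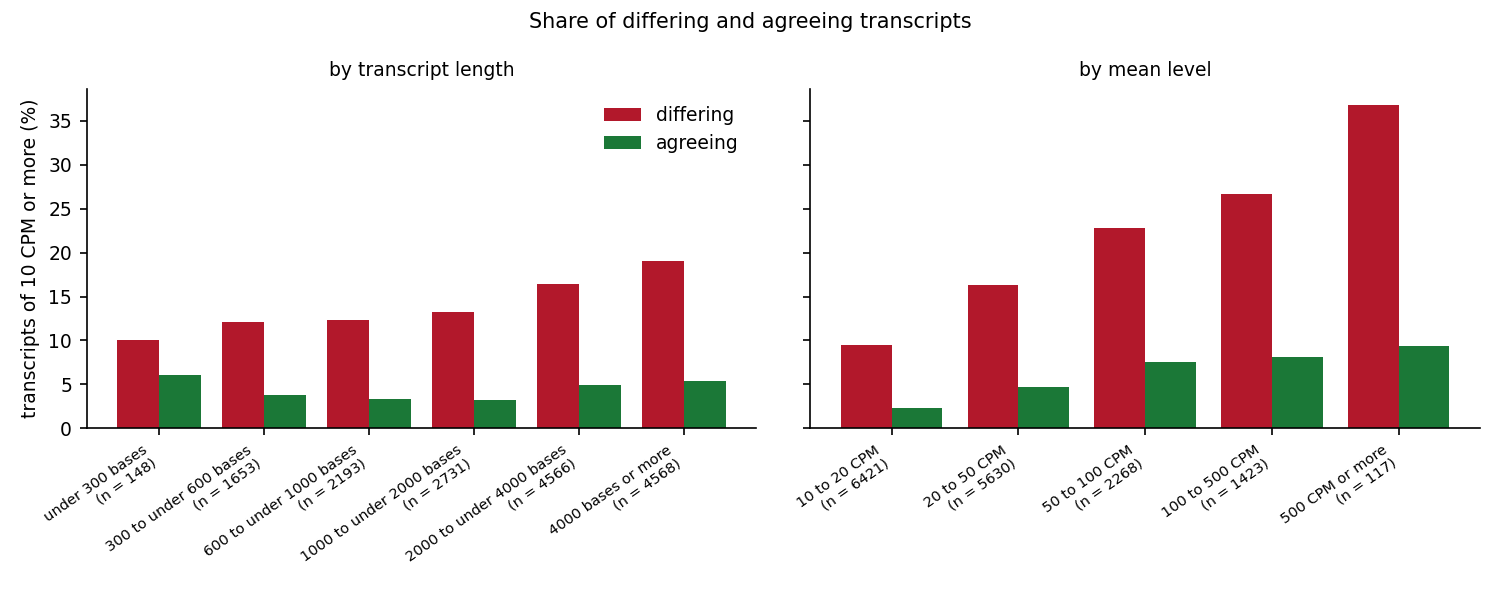
Percentage of transcripts of at least 10 CPM (y axis) that differed (red) or agreed (green), by transcript length (left) and by mean level over the 12 libraries (right), with the number of transcripts in each class. The differing share goes from 10.1% to 19.1% with length and from 9.53% to 36.8% with level.

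Some of the 15859 transcripts had under 3 estimated reads in every library of a group. This was so for 65 in Ctrl, 147 in siSTAT3, 75 in Ctrl+Vector and 72 in siSTAT3+Vector, or 281 transcripts in at least 1 group. Of these 281, 30 differed, beside 2469 of all 15859, and 0 agreed. So few reads in a group hardly allow the narrow interval that the agreement rule needs, so the 0 does not bear on agreement. A fitted value against a group with almost no reads depends on the prior count of the fit, so these transcripts were left out of the counts of 2-fold and 4-fold differences.

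The number of differing transcripts depended on which Ctrl pair was the reference. Against Ctrl replicates 1 and 2, 3605 of the 15859 transcripts differed between the experiments, and against Ctrl replicates 3 and 4, 5386 did, each Ctrl pair being a group of its own in that fit. Both comparisons use 10 libraries and share 8 of them, so their calls are not independent of each other. In the main fit the gap between the Ctrl pairs counts as spread among replicates, and in the fit with the pairs apart it does not. The effect with vector, which compares no Ctrl library, also went from 5296 to 8564 calls over all tested. The agreement rule took 1316 transcripts against the first pair and 998 against the second. Among the 168 with unshared reads, 77 and 101 differed and 35 and 21 agreed. The Ctrl pairs themselves differed for 69 of the 168 (41.1%), for 18 of the 48 that differed between experiments (37.5%) and for 458 of the 2469 (18.6%, beside 20.1% of all).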

How the data were processed

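Poly(A) RNA-seq of 17 libraries was deposited as 1 table per library. The deposited estimated counts (expected counts that need not be whole) are per transcript, with lengths in bases, per the file headers. The deposited TPM values were not used. Among tools, Salmon 1.4.0 is listed, per the submitters' processing notes, beside HOMER, Bowtie2 and CASAVA, with GRCh38 and hg38 as builds. For the transcript release and mapping options, nothing is given in the sources used here. The 2 CUT&Tag samples were not analysed here. The 5 other RNA libraries entered only 1 alternative and the choice of transcripts with unshared reads.

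Estimated counts were rounded. The 12 libraries entered 1 edgeR 4.0.16 fit (R 4.3.3, quasi-likelihood test with 4 group means, TMM scaling and the filterByExpr filter), with Benjamini-Hochberg adjustment over all 81234 transcripts tested and a threshold of 0.05. A standard error is the log2 fold change over the root of its F statistic. CPM values are TMM-scaled. 3 reads corresponded to 0.13 to 0.156 CPM. The script was tested on simulated data. DESeq2 1.42.0 and limma 3.58.1 (voom) were alternatives. Groups and replicate numbers came from the titles. Named transcripts had unshared reads, at least 10 CPM and the same sign against both Ctrl pairs. The 2 largest positive and 2 largest negative differences were taken, and the 2 raised and 2 lowered agreeing transcripts with the largest smaller effect. This fallback replaced the planned naming by gene. Members and rules were chosen with earlier results of these data known.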

Additional observations from a re-analysis of the deposited data

Results flagged for a closer look

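The STAT3 siRNA effect differed between the experiments, by the interaction contrast, for 2469 transcripts of at least 10 CPM. Of the named transcripts, 4 are listed here because they were chosen by the same test, so their listing adds no support to it. The difference of effects was 3.33 for ENST00000266085.6, 2.68 for ENST00000421546.1, -2.83 for ENST00000223023.4 and -2.77 for ENST00000378988.4 on the log2 scale. Among the 4 Ctrl libraries, none stood alone by Dixon's criterion in total reads, in the share of reads on short transcripts or in the level of the 8 named transcripts. That criterion cannot see 2 pairs, and the Ctrl pairs differed for ENST00000266085.6, ENST00000378988.4 and ENST00000239223.3 (adjusted p = 5.51e-05, 0.000536 and 0.0187, edgeR). Groups of 2 and 3 libraries were not examined this way.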

How the results depend on the processing

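The counts depended on the settings more than the named transcripts did, and no called value of a named transcript reversed its direction. Among all transcripts of at least 10 CPM, some did reverse between the Ctrl pairs. The difference was called against both pairs with opposite signs for 60, and with the same sign for 2857. With unshared reads these numbers were 4 and 62. The 2469 called in the main fit all had the same sign against both pairs. In that fit the gap between the pairs counts as spread, so a transcript with opposite signs could hardly be called. The shared sign is therefore no separate support. The difference was called for 3588 transcripts of all tested, and for 9205 with DESeq2, 8577 against Ctrl replicates 3 and 4, and 1909 with the replicate block. At 10 CPM or more, 2469 became 4578, 5386 and 1583 under these settings. Of the 2469, DESeq2 also called all 2469 in the same direction and the block 1147. The block had a term for each replicate number within an experiment. No siSTAT3 library shares a number with Ctrl replicates 3 and 4, so they added nothing to the block's effect without vector. For ENST00000266085.6 the difference was 2.72 with the block and 2.72 against Ctrl replicates 1 and 2. Of transcripts with unshared reads, 48 became 76 with DESeq2, 77 against Ctrl replicates 1 and 2, and 101 against Ctrl replicates 3 and 4. The 706 agreeing became 1162 with DESeq2 and 1316 against Ctrl replicates 1 and 2, where the 16 with unshared reads became 35. The effect without vector (5109 of all tested) gave 10785 with DESeq2, 8924 against Ctrl replicates 3 and 4, 2985 with the block and 2195 with each experiment fitted apart. The effect with vector (5296) gave 11204, 8564 in the fit with 2 Ctrl pairs, and 9279 fitted apart. Leaving out 1 library gave 2349 to 3916, 1416 to 2657 and 25 to 54 differing (all, 10 CPM or more, unshared), 335 to 713 and 6 to 17 agreeing, and 2693 to 5058 and 3150 to 5466 for the effects without and with vector. Without siSTAT3 replicate 1, the values were 2371, 1442, 25, 350, 7 and 2757, and without siSTAT3 replicate 2 they were the lowest of each range but the last. The effect with vector fell to 3359 without Ctrl+Vector replicate 2, and to 3231, 3150 and 3465 without siSTAT3+Vector replicates 1, 2 and 3, the second of which left 468 agreeing. The cause was not tested. Deviations of same-numbered libraries from their group means correlated at 0.0244 and 0.0391 without vector, and at -0.0731, 0.00434 and -0.0627 with vector. These values cannot settle whether the replicate numbers pair the samples. Without vector, the 2 siSTAT3 libraries deviate by equal and opposite amounts, while the Ctrl libraries deviate mostly by pair. With the replicate block, the effect of ENST00000427575.5 without vector had an adjusted p of 0.0676 (edgeR). Limits of 5 and 20 CPM gave 2921 and 1857 differing and 781 and 560 agreeing. The gene lists and the sums of reads per gene were not run, for want of a table pairing transcripts with genes.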
